A study of Mus musculus with 2 samples.

Results

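The genes described here encode the machinery of oxidative phosphorylation, taken by symbol from the gene list of the series: the respiratory complexes I to IV, the ATP synthase (complex V) and a few of their assembly factors. Of 31053 listed genes, 107 had a matching symbol and 103 of these had at least 20 UMIs (unique molecular identifiers, one per captured RNA molecule) over both libraries. The choice used symbols and detection, not any difference between samples. The mitochondrial genome encodes 13 of the 103, and the nucleus encodes 90, made up of 81 subunits and 9 assembly factors. By complex, the nuclear subunits number 36 in complex I, 4 in complex II, 9 in complex III, 17 in complex IV and 15 in complex V. The mitochondrially encoded ones number 7, 0, 1, 3 and 2. Of the 4 left out, Cox4i2 had 18 UMIs, Ndufa4l2 had 5, and Cox8c and a second entry named Atp5o had 0.

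Colonic crypt cells came from C57BL/6 mice, 4 weeks old. The control mice, M14(f/f), carry loxP-flanked alleles and no Cre, and the M14(f/f);Villin-Cre mice, called cKO here, carry the same alleles with Cre under the Villin promoter, which is active in intestinal epithelium. M14 is read here as Mettl14, a subunit of the methyltransferase that places N6-methyladenosine on RNA. Cells of 3 mice per genotype were pooled into 1 10x library each, so the spread between animals was not measured, no test was made, and every interval below is a 95% interval of counting error only.

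Oxidative phosphorylation couples 2 genomes. Complexes I, III and IV pass electrons from NADH and succinate to oxygen and pump protons across the inner mitochondrial membrane, complex II feeds electrons from succinate without pumping, and complex V uses the proton gradient to make ATP. Complexes I, III, IV and V each combine subunits imported from the cytosol with hydrophobic ones made inside the mitochondrion, whereas complex II is wholly nuclear. The mitochondrial genome is transcribed as long precursors that are cut at tRNAs into the individual messages, so most of its genes are transcribed together but their messages need not last equally long. In the colon, mature absorptive cells lean on this system to burn butyrate.

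The mitochondrial messages are shown first where they bear on what can be counted, because neighbouring genes share bases and reads from the shared stretch cannot be told apart. In the GRCm38 reference, mt-Atp8 lies on the plus strand at chrM:7766-7969 and shares its last 43 bases, in capitals, with the start of mt-Atp6. The end of mt-Nd4l and the start of mt-Nd4 share 7 bases, in capitals, in the window chrM:10134-10206 on the plus strand.
mt-Atp8: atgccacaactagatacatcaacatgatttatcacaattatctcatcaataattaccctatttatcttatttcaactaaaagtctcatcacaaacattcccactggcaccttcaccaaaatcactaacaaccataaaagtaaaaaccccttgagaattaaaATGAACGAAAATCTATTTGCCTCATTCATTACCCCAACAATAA
mt-Nd4l and mt-Nd4: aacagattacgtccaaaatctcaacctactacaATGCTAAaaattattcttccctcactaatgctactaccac
Both pairs stay joined as bicistronic messages in mammals, so the separate values of mt-Atp8 and mt-Atp6, and of mt-Nd4l and mt-Nd4, are uncertain. mt-Nd6 is encoded on the other strand and overlaps the end of mt-Nd5.

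The nuclear members were also compared at their promoters, since nuclear respiratory factor 1 (NRF1) is a known activator of many of them. RefSeq (GRCm38.p6) held a promoter of 250 bases before to 50 bases after the start for 74 of the 90 nuclear members. Searched on both strands, GCGCATGCG, the core of the NRF1 site, was in 10 of 74 (13.5%) and in 1.81% of all 27025 promoters. The looser form GCGCANGCG, which includes the former, was in 21 of 74 (28.4%) and in 6.47% of all. The ETS-type motif CCGGAAGT was in 5 of 74 (6.76%) and in 4.0% of all, and can share at most 1 base with the other. A match is a description of letters, not of a bound site. The 4 windows below, upstream of the start and written along the gene, have the GCGCANGCG match in capitals. They are shown because the genes recur in the results: Ndufaf4 was higher in the cKO, Sdha and Sdhd belong to complex II, and Atp5g2 is one of the c-ring genes. They lie at chr4:24897955-24897993 (plus strand), chr13:74350315-74350353, chr9:50603905-50603943 and chr15:102671066-102671104 (each minus strand), in that order.
Ndufaf4: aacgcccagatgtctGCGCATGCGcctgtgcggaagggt
Sdha: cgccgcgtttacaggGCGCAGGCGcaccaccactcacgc
Sdhd: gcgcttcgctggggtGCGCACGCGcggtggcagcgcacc
Atp5g2: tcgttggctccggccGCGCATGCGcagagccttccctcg
Members with the looser motif lay on both sides of 0 in the comparison of the libraries: Ndufaf4 had a mean log2 ratio of 1.36, cKO over control, and Sdha one of -0.40.

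After the filter of at least 500 genes and under 25% mt- UMIs per cell, 9077 control and 7072 cKO cells were kept, with medians of 10037 and 6254 UMIs. Clusters were formed without the members and named from marker genes, which gave 2710 and 1824 cycling-like, 3344 and 2435 goblet-like, 1866 and 351 colonocyte-like, and 223 and 386 enteroendocrine-like cells (control and cKO). A further 357 and 393 cells were T- or NK-like, a class in which Villin-Cre is not known to act. The epithelial-like share of kept cells was 95.9% in the control and 85.5% in the cKO. Of 28 clusters 22 were epithelial-like, and 17 of these 22 drew at least 90% of their cells from 1 library. Colonocyte-like, goblet-like and cycling-like cells come mainly from different clusters in the 2 libraries. The T- or NK-like cells also differ in make-up. Cluster 14 holds 353 control and 177 cKO cells, and cluster 20, led by Trdc and Il17a, holds 4 and 216. Ratios over this class therefore also compare different lymphocytes. Clusters 4 and 13, mostly of the cKO, cluster 8, mostly of the control, and cluster 10 (124 control and 614 cKO cells) had mt- UMIs over 9% in a library (in cluster 10 the control cells had 6.90% and the cKO cells 9.22%). Their median depths lay between 1879 and 3585 UMIs, and Gm26917 was among the leading genes of each, beside Gm42418, Lars2 or histone genes. They belong to the cycling-like, goblet-like and unnamed epithelial cells, and the main values that rest on them are given with and without them. The libraries also differed in sex, with Xist at 0.0644 and 312 CPM (UMIs of a gene per 1000000 UMIs) and summed Y-linked genes at 103 and 0.0700 CPM, so sex and genotype cannot be told apart. Mettl14 itself had 4.76 and 5.03 CPM, which checks nothing, since the counted part of the message may lie outside the deleted exons. The libraries shared 33 cell barcodes.

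Nuclear subunits made up a larger share of the transcriptome of colonocyte-like cells than of any other named class of the control. In the control, the 81 nuclear subunits summed to 8.63% of all UMIs in colonocyte-like cells, 6.10% in the cycling-like, 5.45% in the goblet-like, 4.85% in the enteroendocrine-like and 3.66% in the T- or NK-like cells. In the cKO the same sums were 7.001%, 6.18%, 5.46%, 3.901% and 3.21%. The order of the 5 classes was the same in both libraries, and the distance between the colonocyte-like cells and the others was smaller in the cKO. Set against the control, the nuclear sum was 0.812 times as high in colonocyte-like cells (interval 0.809 to 0.815) and 0.804 times as high in enteroendocrine-like cells (0.796 to 0.811). It was 1.01 times as high in cycling-like cells (1.01 to 1.02) and 1.001 times in goblet-like cells (0.999 to 1.003). In T- or NK-like cells the ratio was 0.878 (0.864 to 0.892). The lower nuclear sum was thus seen in 2 of the 4 epithelial classes and also in the T- or NK-like cells. Within cluster 14, the lymphocyte cluster that both libraries filled, the ratio was 0.936. The cKO cells of cluster 20 had 2.93%, beside 3.42% in those of cluster 14.

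**Figure D1:**
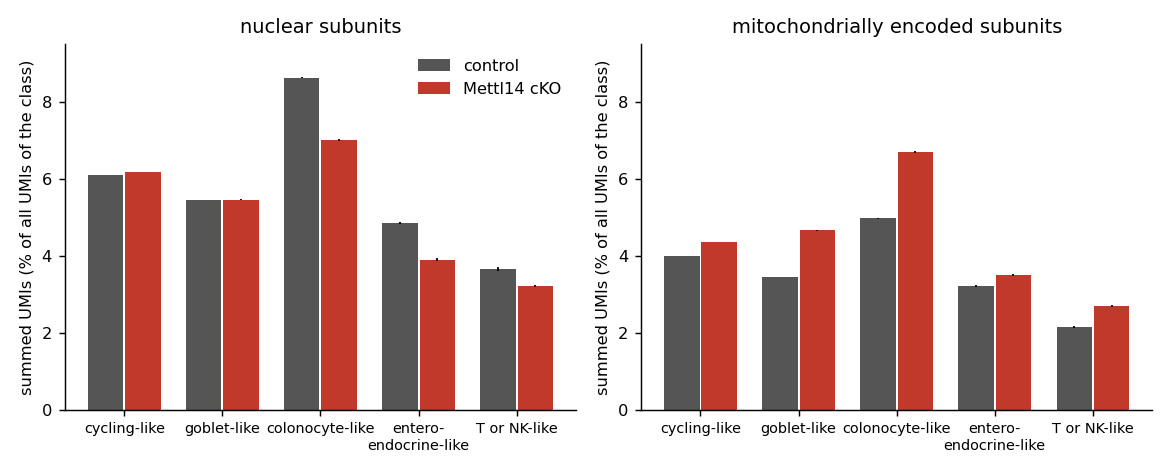
Summed UMIs of the 81 nuclear (left) and 13 mitochondrially encoded subunits (right) as a percentage of all UMIs of each class, control in grey and cKO in red; the error bars are 95% Poisson intervals of counting error. Nuclear sums stand lower in the cKO in colonocyte-like (8.63% and 7.001%) and enteroendocrine-like cells (4.85% and 3.901%), while mitochondrially encoded sums stand higher in the cKO in all 5 classes.

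The mitochondrially encoded subunits went the other way. In the control, cycling-like cells had 3.99% of all UMIs in them, goblet-like cells 3.44%, colonocyte-like cells 4.97% and enteroendocrine-like cells 3.22%, against 4.36%, 4.66%, 6.70% and 3.51% in the cKO. The ratios were 1.09, 1.35, 1.35 and 1.09, and 1.26 in T- or NK-like cells (2.15% and 2.70%). How far the sum differed turned on the cells of high mt- share. Without the clusters over 9% mt- UMIs the mean log2 ratio over the 4 epithelial classes was 0.14 instead of 0.28, with the goblet-like value at 0.04 and the cycling-like value at -0.03. Among cells under 10% mt- UMIs it was -0.01. That filter cuts on the same quantity, and 31.6% of the epithelial-like cKO cells but 14.3% of the control ones had a mt- share over 10%. The total of mitochondrial messages is therefore not a steady difference between the libraries.

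The balance among the counts of the 13 mitochondrial genes was the steadier difference. In epithelial-like cells mt-Nd1, which encodes a membrane subunit of complex I next to the quinone site, was 3.999% of the mitochondrially encoded UMIs in the control and 8.10% in the cKO. mt-Nd3, another membrane subunit of complex I, was 0.929% and 2.34%. mt-Co1, the catalytic subunit of cytochrome oxidase, was 23.6% and 16.6%. At like mt- share the same balance was seen: in cells with under 2% mt- UMIs mt-Nd1 took 4.33% in the control and 8.74% in the cKO, and in cells with 10 to 25% it took 3.52% and 7.82%. In the 2 enteroendocrine-like clusters that both libraries filled, 16 and 24, mt-Nd1 took 4.08% and 4.21% of the mitochondrially encoded UMIs in the control and 7.29% and 6.84% in the cKO. Without the clusters over 9% mt- UMIs the epithelial-like shares were 4.0003% and 8.12% for mt-Nd1, 0.928% and 2.24% for mt-Nd3 and 23.9% and 17.6% for mt-Co1. Gm42418, a transcript that overlaps a ribosomal RNA repeat, moved with these values: it was at 985 and 1622 CPM in epithelial-like cells and higher in the cKO in each of the 4 classes, as was Lars2 (37.9 and 67.4 CPM). Their part in the result was not tested.

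By CPM, mt-Nd1 was at 1718 in the cycling-like cells of the control, 1323 in the goblet-like ones, 1908 in the colonocyte-like ones and 1329 in the enteroendocrine-like ones. In the cKO, and in the same order, which holds for every set of 4 values below, it was at 3612, 3970, 4722 and 2501. mt-Nd1 was thus higher in the cKO in each class, but classes of 1 library are not replicates. mt-Nd3 was at 414, 343, 357 and 364 CPM in these classes of the control and at 1032, 1188, 1015 and 854 CPM in the cKO, also higher in each class. mt-Atp8, a small membrane subunit of the ATP synthase, was at 135, 111, 179 and 100.1 CPM and at 263, 308, 375 and 193 CPM. mt-Co1 was at 8361, 9004, 12140 and 7543 CPM in the control and at 6752, 7877, 14317 and 5905 CPM in the cKO, lower in 3 classes and higher in colonocyte-like cells. mt-Cytb, the only mitochondrially encoded subunit of complex III, was at 6248, 4571, 6470 and 4744 CPM and at 6207, 5082, 7032 and 4673 CPM, with ratios between 0.985 and 1.11. Without the clusters over 9% mt- UMIs, which changes the cycling-like and goblet-like values, mt-Nd1 was at 1578 and 1322 CPM in these classes of the control and at 2959 and 3095 in the cKO, mt-Nd3 at 382 and 343 and at 816 and 881, mt-Co1 at 7721 and 9003 and at 5789 and 6224, and mt-Cytb at 5582 and 4570 and at 4848 and 3838. The ratios of mt-Cytb, 0.868 and 0.840, were then below 1.

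The size of each member was taken as the log2 ratio of CPM plus a pseudocount of 1, cKO over control, averaged over the 4 classes, and a member counted as higher or lower when this reached 1.5-fold. Among the 13 mitochondrially encoded members 6 were higher and 0 lower, with a median of 0.47. Of all 15834 genes with at least 20 UMIs, 13.0% were higher and 10.6% lower by the same measure. The 6 were mt-Nd3 (1.46), mt-Nd1 (1.22), mt-Atp8 (1.11), mt-Nd4l (0.73), mt-Nd2 (0.70) and mt-Nd5 (0.62). The others were mt-Atp6 (0.47), mt-Nd6 (0.43), mt-Co3 (0.24), mt-Co2 (0.22), mt-Nd4 (0.14), mt-Cytb (0.06) and mt-Co1 (-0.15). Thus 5 of the 6 belong to complex I and none to complex III or IV. mt-Atp8 and mt-Nd4l share a message with mt-Atp6 and mt-Nd4, so their separate values and their place among the 6 are uncertain. Without the clusters over 9% mt- UMIs, or with cells under 10% mt- UMIs, 3 stayed past 1.5-fold: mt-Nd3 (1.30 and 1.14), mt-Nd1 (1.09 and 0.94) and mt-Atp8 (0.93 and 0.75). mt-Nd6, the only one read from the other strand, had 1305 and 1318 UMIs in epithelial-like cells, against 173258 and 312889 for mt-Nd1.

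**Figure D2:**
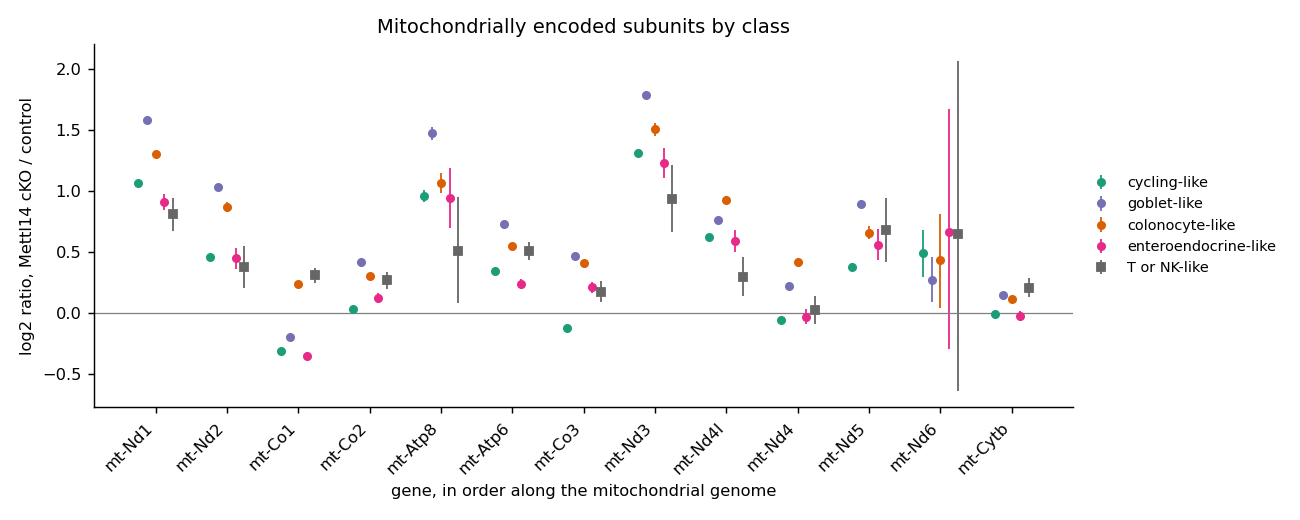
Log2 ratio of CPM, cKO over control, for each mitochondrially encoded subunit in order along the mitochondrial genome, with 1 point per class and 95% counting intervals as bars (T- or NK-like cells as squares). mt-Nd1, mt-Atp8 and mt-Nd3 stand highest in each of the 4 epithelial classes, with no run up or down along the genome, and mt-Co1 is below 0 in 3 of them.

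T- or NK-like cells shared part of this pattern. mt-Nd1 was at 864 CPM in those of the control and 1517 in those of the cKO, a ratio of 1.76 (1.60 to 1.93), and mt-Nd3 was at 211 and 405, a ratio of 1.92 (1.59 to 2.32). As a share of mitochondrially encoded UMIs mt-Nd1 was 4.03% and 5.62% there, a smaller distance than the 3.999% and 8.10% of epithelial-like cells, and mt-Co1 was 21.5% and 21.2%. In cluster 14, which holds 353 control and 177 cKO lymphocytes, the mt-Nd1 share was 4.02% and 5.18%. RNA set free by other cells also reaches these droplets, and its part in these values was not tested. The pattern was weaker where cKO cells joined clusters made mainly of control cells. The 59 cKO cells in cluster 5, a cycling-like cluster of 891 control cells, had a mt-Nd1 share of 5.44%, against 4.39% in its control cells, and a level of 1712 against 1645 CPM. In cluster 12, unnamed epithelial cells (488 control, 207 cKO), the shares were 3.89% and 6.34% and the levels 1463 and 1635 CPM. The whole mitochondrially encoded sum was 0.841 and 0.686 times the control in these clusters, below 1, and the cKO cells there were deep, with medians of 21912 and 24285 UMIs beside 12358 and 9694 in the control.

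Set against the nuclear subunits of its own complex, the mitochondrially encoded part was larger in the cKO for complexes I and V. In epithelial-like cells there were 0.423 mitochondrially encoded UMIs per nuclear UMI of complex I in the control and 0.807 in the cKO. For complex V the values were 0.374 and 0.611. For complex III they were 0.628 and 0.630, and for complex IV 0.993 and 1.05. The distance was widest in colonocyte-like cells, with 0.340 and 0.887 for complex I and 0.368 and 0.774 for complex V. In cycling-like cells the values of complex III (0.750 and 0.666) and complex IV (1.03 and 0.889) were lower in the cKO. T- or NK-like cells had 0.434 and 0.628 for complex I and 0.310 and 0.515 for complex V. Complex III (0.652 and 0.862) and complex IV (0.990 and 1.38) were also higher in the cKO there. The complexes with the same direction in all 4 epithelial classes were I and V. Without the clusters over 9% mt- UMIs the epithelial-like values were 0.406 and 0.608 for complex I and 0.362 and 0.464 for complex V, still higher in the cKO, but 0.600 and 0.474 for complex III and 0.961 and 0.819 for complex IV, lower in the cKO. In cycling-like and goblet-like cells the ratios then stayed above 1, at 1.31 and 1.47 for complex I and 1.16 and 1.38 for complex V. Colonocyte-like and enteroendocrine-like cells hold no cells of these clusters, so their values could not change. Among the colonocyte-like cells, 17.1% in the control and 42.2% in the cKO had a mt- share over 10%.

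Over the 81 nuclear subunits, the median size was -0.27, with 1 higher (Uqcr10) and 7 lower (Sdhb, Sdhc, Cyc1, Uqcrh, Cox7a1, Cox6b2 and Atp5g1). Among the 77 with at least 50 CPM in epithelial-like cells of 1 library the median was -0.28, with 1 higher and 6 lower. All 2831 genes of that level had a median of -0.13, with 11.7% higher and 15.2% lower, so a smaller share of the subunits than of these genes passed 1.5-fold in either direction. Of the 2831 genes 1716 had a mean below 0 and 1115 above, beside 62 and 15 of the 77 subunits. Over the 81, the median was -0.04 for cycling-like, -0.06 for goblet-like, -0.49 for colonocyte-like and -0.48 for enteroendocrine-like cells, beside -0.04, -0.08, -0.17 and -0.16 over the 2831 genes. In colonocyte-like cells 33 of 81 subunits were at least 1.5-fold lower, where 22.6% of the 2831 genes were, and in enteroendocrine-like cells 24 of 81, where 23.3% of genes were. In cycling-like cells 2 of 81 were lower (14.5% of genes) and in goblet-like cells 3 of 81 (17.2% of genes).

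Other measures moved with these 2 classes. The 18 colonocyte markers summed to 73873 CPM in the colonocyte-like cells of the control and 37160 in those of the cKO, which come mainly from cluster 17, while the control ones come mainly from clusters 1 and 11. The 14 enteroendocrine markers summed to 68407 and 128721 CPM in enteroendocrine-like cells, and goblet markers there to 18310 and 3376. Cycling markers in enteroendocrine-like cells were at 4262 and 1866 CPM, and the 14 myeloid markers in colonocyte-like cells at 29.4 and 417 CPM, with 4 and 2 of them at 0. The nuclear RNA Malat1 was at 6548 and 17018 CPM in colonocyte-like and at 8274 and 12010 CPM in enteroendocrine-like cells. The part of these in the nuclear subunit values was not tested.

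**Figure D3:**
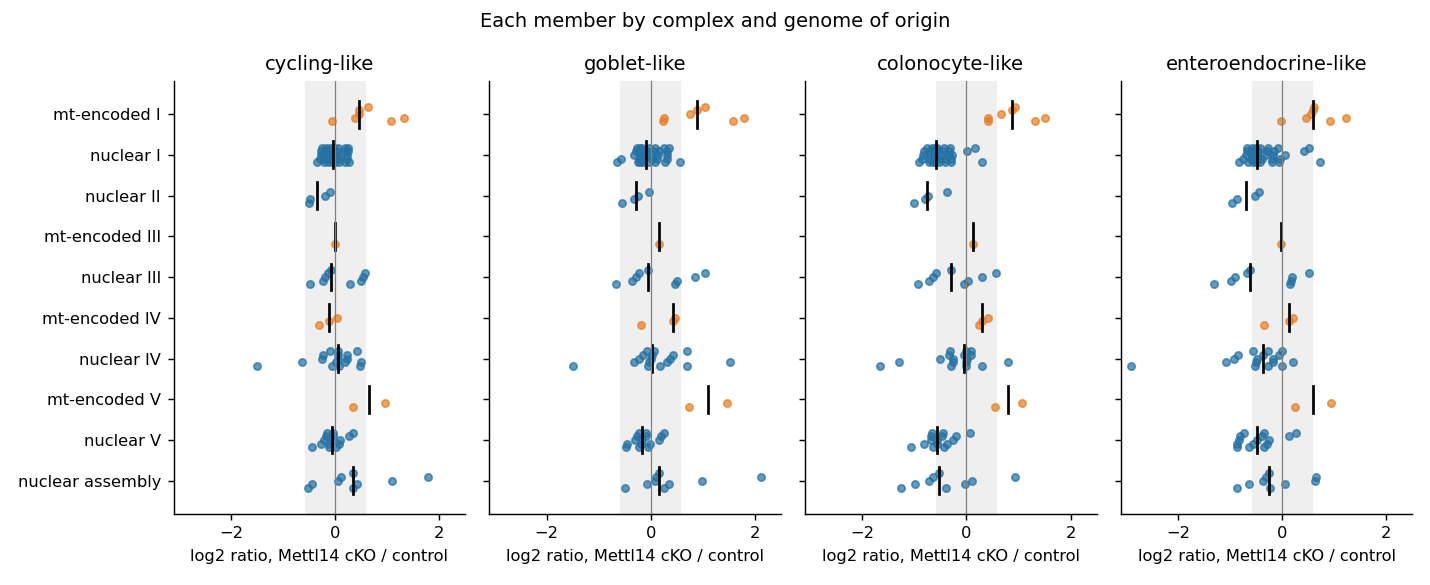
Log2 ratio of CPM plus 1, cKO over control, of each member (points) by complex in the 4 classes, mitochondrially encoded in orange and nuclear in blue; black bars are medians and the grey band is under 1.5-fold. The nuclear subunits of complexes I, II and V lie mostly below 0 in colonocyte-like and enteroendocrine-like cells, where the complex I medians are -0.59 and -0.47; in cycling-like cells the complex I median is -0.03 and the complex II median -0.34.

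Complex I splits into a catalytic core and an outer shell of accessory subunits. In colonocyte-like cells all 7 nuclear core subunits and 11 of the 29 accessory ones were at least 1.5-fold lower, where 22.6% of the 2831 genes were. The 7 core subunits, which carry the flavin and the iron-sulfur clusters, all had mean sizes below 0, with a median of -0.41. Of the 29 accessory subunits 24 had mean sizes below 0, with a median of -0.24. Among the 2831 genes with at least 50 CPM, 1716 were below 0 by the same measure. The largest core difference was that of Ndufs1, which holds iron-sulfur clusters of the peripheral arm, at 60.3, 51.0, 85.9 and 41.7 CPM in the 4 control classes and at 51.6, 32.2, 45.3 and 28.8 CPM in the cKO. Ndufa9, an accessory subunit at the joint of the arms, was at 146, 124, 180 and 97.7 CPM and at 129, 82.7, 108 and 54.6 CPM. Both genes were lower in the cKO in every class. The highest accessory members were Ndufv3, at 387, 437, 638 and 462 CPM and 399, 646, 641 and 769 CPM, and the X-linked Ndufa1, at 359, 444, 557 and 376 CPM and 410, 528, 688 and 506 CPM. Neither reached 1.5-fold on average (0.34 and 0.29), nor did any other nuclear complex I subunit in either direction. The other X-linked members, Ndufb11 and Cox7b, had -0.29 and -0.35.

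Complex II, succinate dehydrogenase, was lower in the 4 epithelial classes. All 4 subunits were below 0 in all 4 classes, with a median of -0.51, and their sum was 0.793, 0.819, 0.580 and 0.594 times the control. Of the 2831 genes with at least 50 CPM, 1520, 1568, 1713 and 1715 were below 0 in these classes. Sdhb, the iron-sulfur subunit, was at 456, 331, 833 and 324 CPM in the control and at 321, 226, 415 and 166 CPM in the cKO, with ratios of 0.703, 0.684, 0.498 and 0.512. Sdhc, which anchors the enzyme in the membrane, was at 130, 108, 172 and 97.7 CPM and at 92.1, 85.4, 98.5 and 53.1 CPM. Sdha, the flavoprotein, had a mean of -0.40 and Sdhd, the other anchor, -0.26. In T- or NK-like cells Sdhb was at 260 and 196 CPM, a ratio of 0.755 (0.616 to 0.926), and the complex II sum had a ratio of 0.861 (0.744 to 0.997), while Sdhc had 0.523 (0.314 to 0.862), Sdha 1.04 (0.680 to 1.61) and Sdhd 1.23 (0.914 to 1.66).

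Complex III subunits were spread to both sides, with 4 of 9 above 0 and a median of -0.32. Cyc1, cytochrome c1, was at 643, 427, 911 and 431 CPM in the control and at 562, 350.1, 475 and 173 CPM in the cKO. Its ratio of 0.401 (0.354 to 0.454) in enteroendocrine-like cells was lower than the 0.875 (0.857 to 0.892) in cycling-like cells. Uqcrh, the acidic hinge protein that binds cytochrome c1, was at 1419, 1684, 1675 and 1176 CPM and at 1015, 1053, 1077 and 740 CPM, lower by a similar ratio in each class (0.625 to 0.715). Uqcr10 and Uqcrq, small membrane subunits of the same complex, were higher instead. Uqcr10 was at 1263, 1137, 1456 and 989 CPM in the control and at 1894, 2325, 2165 and 1407 CPM in the cKO, and it was the only nuclear subunit past 1.5-fold upward on average (0.67). Uqcrq was at 1230, 1188, 1890 and 900 CPM and at 1740, 2140, 2320 and 1030 CPM (0.46). The opposite directions inside one complex were seen in all 4 classes. In T- or NK-like cells the ratio was 1.20 (1.06 to 1.36) for Uqcr10 and 0.959 (0.847 to 1.09) for Uqcrq.

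Complex IV had the median nearest to 0 among complexes I to V, -0.10 over 17 members with 7 above 0. Over its 13 members with at least 50 CPM the median was -0.19, with 4 above 0. Of its subunits without isoforms, Cox5a had a mean of -0.27, Cox5b -0.21 and Cox7c -0.06. Cox5a, which binds the core from the matrix side, was at 2092, 1563, 4085 and 1366 CPM in the control and at 2202, 1595, 3223 and 764 CPM in the cKO, so that cycling-like and goblet-like cells were close to the control and enteroendocrine-like cells stood at 0.559 times it. Ndufa4, now counted with complex IV, was at 1663, 1702, 1111 and 1262 CPM and at 2304, 2110, 1934 and 1116 CPM, higher in 3 classes. Cox7a2l, a factor that joins complex III to complex IV in supercomplexes, was at 258, 257, 253 and 255 CPM and at 367, 414, 270 and 296 CPM.

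Several complex IV subunits exist as tissue isoforms. Cox7a1, the heart and muscle form, was at 30.05, 62.3, 228 and 33.1 CPM in the control and at 18.9, 80.7, 71.8 and 15.1 CPM in the cKO. It was thus highest in colonocyte-like cells of the control and highest in goblet-like cells of the cKO. Its mean was -0.75, and that of its partner Cox7a2 -0.36. Cox6b2, known from testis, was under 50 CPM in both libraries: its 1077 and 298 UMIs in epithelial-like cells gave 9.98 and 3.61 CPM, a ratio of 0.362 (0.317 to 0.412), and in enteroendocrine-like cells it had 21 UMIs and 1 UMI. The common form Cox6b1 had 0.02. The muscle and testis forms Cox6a2, Cox7b2 and Cox8b had 1, 3 and 8 UMIs in epithelial-like cells of the control and 34, 75 and 23 in those of the cKO. Of the 75 Cox7b2 UMIs 67 lay in goblet-like cells. At under 1 CPM these levels say only that the genes were near the limit of detection. The common forms Cox4i1 (-0.19), Cox6a1 (-0.31), Cox7b (-0.35) and Cox8a (-0.10) stayed within 1.5-fold, as did Cox6c (0.07), which has no second form here.

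Complex V subunits were below 0 in 13 of 15 cases, with a median of -0.30, beside 1716 of the 2831 genes with at least 50 CPM. The 2 catalytic subunits of the head, Atp5a1 and Atp5b, had -0.44 and -0.41, the 3 members of the central stalk -0.41 to -0.10 and the 4 of the peripheral stalk -0.58 to -0.28. Atp5f1, subunit b of the peripheral stalk, was at 994, 887, 1301 and 774 CPM in the control and at 857, 635, 744 and 434 CPM in the cKO. Atp5j, of the same stalk, had a mean of -0.45. Atp5l, a membrane subunit, was at 1180, 1063, 1598 and 1188 CPM and at 1421, 1223, 1672 and 1429 CPM, higher in each class though by no more than 1.20 times.

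The c-ring of the ATP synthase is made from 3 genes that encode one mature protein. Atp5g1 was at 2076, 1751, 2677 and 1481 CPM in the control and at 1529, 1268, 1287 and 810 CPM in the cKO, with ratios of 0.736, 0.724, 0.481 and 0.547. Atp5g2 was at 1454, 1350, 1181 and 1252 CPM and at 1556, 1268, 985 and 984 CPM. Atp5g3 was at 951, 788, 1314 and 766 CPM and at 1206, 940, 1148 and 639 CPM. Only Atp5g1 of the 3 was past 1.5-fold on average (-0.71, beside -0.15 and 0.04). It was also lower in T- or NK-like cells, at 929 and 615 CPM, a ratio of 0.662 (0.593 to 0.739), while Atp5g2 and Atp5g3 there had ratios of 0.928 (0.848 to 1.02) and 1.02 (0.895 to 1.16). Many of the small nuclear subunits have processed pseudogenes in the mouse genome, and the sources used here do not say how reads shared with those copies were counted.

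**Figure D4:**
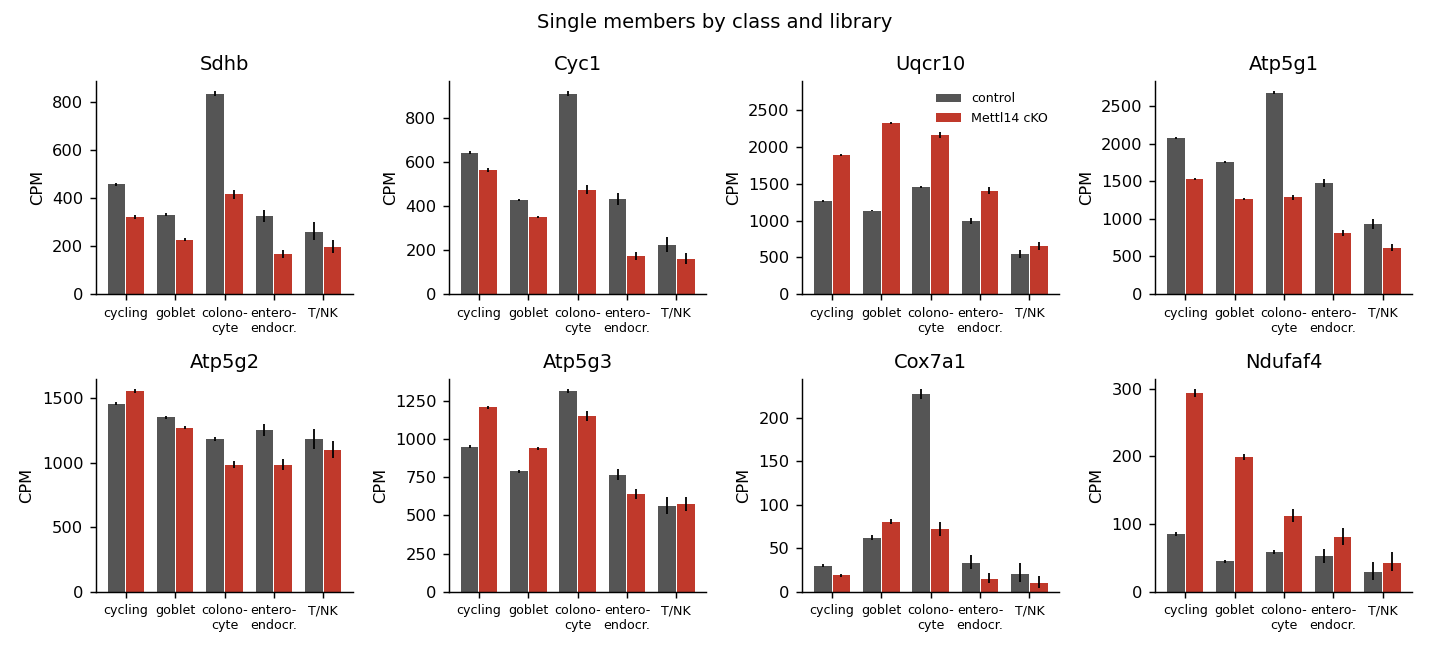
CPM of 8 members in 5 classes, control in grey and cKO in red, with 95% Poisson intervals as error bars. Sdhb, Cyc1 and Atp5g1 stand lower in the cKO in each class, Uqcr10 and Ndufaf4 stand higher, and Cox7a1 has its highest bar in colonocyte-like cells of the control (228 CPM).

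Among the assembly factors of complex I was Ndufaf4, the member with the highest nuclear value upward (1.36). Ndufaf4, which helps build the peripheral arm, was at 85.0, 45.3, 58.2 and 52.2 CPM in the control and at 293, 199, 112 and 81.4 CPM in the cKO, with ratios of 3.45, 4.39, 1.93 and 1.56. In T- or NK-like cells its 21 and 43 UMIs gave a ratio of 1.51 (0.879 to 2.69), so a difference there was not detectable at this depth. Over the 9 assembly factors 2 were higher, Ndufaf4 and Ndufaf1 (0.71, at 22.2 and 44.6 CPM in epithelial-like cells), and 1 was lower, Atp5s (-0.65), where 13.0% and 10.6% of all genes were. Ndufaf8, Ndufaf2 and Ndufaf3 had -0.09, -0.22 and -0.10.

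Between classes of the control, 37 of 81 nuclear subunits were at least 1.5-fold higher in colonocyte-like than in the other epithelial-like cells, where 16.4% of the 2831 genes were, with a median log2 ratio of 0.55. Cox7a1 led, at 228 CPM against 48.4, followed by Cox5a, at 4085 against 1865, and Sdhb, at 833 against 399. Lower by 1.5-fold was 1 of 81 (34.1% of genes), and 8 of 81 had a log2 ratio below 0. Of the nuclear members with at least 50 CPM the 3 lowest were Ndufa4, at 1111 against 1627 CPM, the assembly factor Ndufaf2 and Atp5g2. In the cKO the same comparison gave a median of 0.11, with 7 of 81 members higher (16.5% of genes) and 2 lower (41.9% of genes). There Cox7a1 was at 71.8 against 48.1 CPM and Sdhb at 415 against 272. The goblet-like cells of the control were low instead, with 21 of 81 at least 1.5-fold lower (17.8% of genes) and a median of -0.45; in the cKO 3 of 81 were (18.5% of genes), with a median of -0.24. Enteroendocrine-like cells had 0 of 81 higher in the control (4.70% of genes); 11 of 81 were lower there (13.4% of genes) and 44 of 81 in the cKO (31.9% of genes), led in the control by Cox7a1 (33.1 against 93.4 CPM), Cox5a (1366 against 2428) and Cox7b (725 against 1165). In cycling-like cells of the control Ndufaf2 (88.1 against 49.0 CPM) and Ndufaf4 (85.0 against 52.3) stood highest relative to the other cells, and the class had medians over the subunits of -0.07 in the control and 0.19 in the cKO. Of the mitochondrially encoded members, 1 of 13 was at least 1.5-fold higher in the control colonocyte-like cells than in the others, with a median of 0.26, and 3 of 13 were in those of the cKO, with a median of 0.34. Without the clusters over 9% mt- UMIs, which belong to the other classes, these were 3 of 13 (0.34) in the control and 11 of 13 (0.71) in the cKO. Those clusters were chosen for their mt- share and lie only among the cells compared against. Leaving them out therefore raises these values by construction, and nothing is read from the rise.

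Because the mt- share is also the measure of the cell filter, nuclear subunits were compared at like shares, as a percentage of the UMIs that are not mitochondrially encoded. Among epithelial-like cells with 2 to 5% mt- UMIs, 5114 control cells had 6.74% and 2258 cKO cells 6.31%, a ratio of 0.936, at median depths of 12716 and 18470 UMIs. In colonocyte-like cells the values at 2 to 5% were 9.26% and 7.83% (941 and 98 cells), at 5 to 10% they were 8.86% and 8.02% (526 and 88 cells), and at 10 to 25% they were 7.15% and 6.55% (319 and 148 cells). The control was above the cKO in each of these strata. Under 2% only 17 cKO cells were left, at 5.64% beside 10.0% in 80 control cells. Enteroendocrine-like cells had 5.35% and 4.08% at 2 to 5%, and 4.93% and 4.96% at 5 to 10%, where 26 and 45 cells were counted. Goblet-like cells went the other way at the highest share, with 4.06% in the control and 5.02% in the cKO at 10 to 25%, beside 5.69% and 5.85% at 2 to 5%. Cycling-like cells differed by no more than 1.04 times in any stratum.

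**Figure D5:**
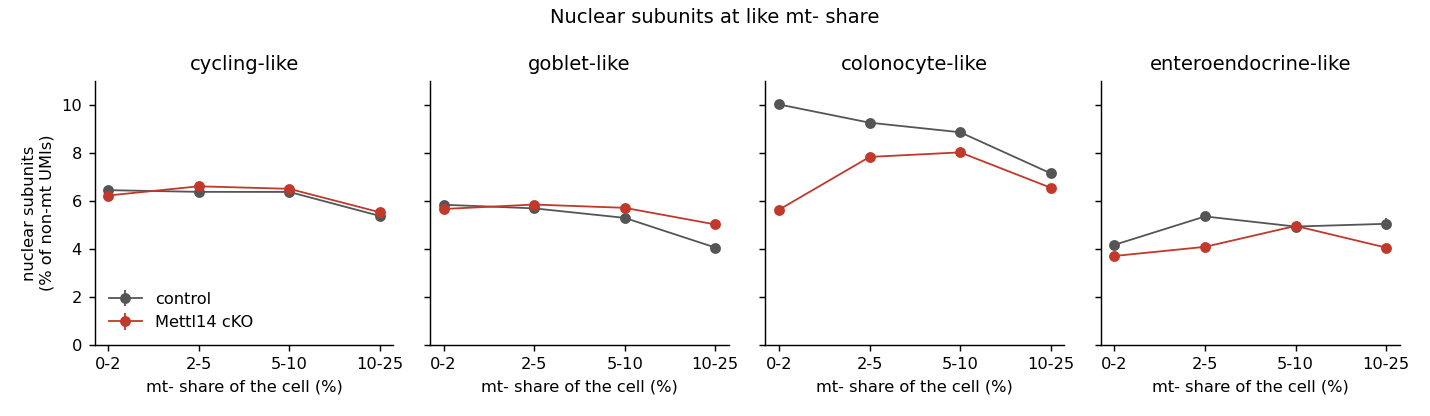
Nuclear subunits as a percentage of UMIs that are not mitochondrially encoded, in cells grouped by their mt- share, for 4 classes, control in grey and cKO in red, with 95% counting intervals. The control lies above the cKO at every mt- share in colonocyte-like cells (9.26% and 7.83% at 2 to 5%), the 2 lines run close together in cycling-like cells, and the cKO lies above in goblet-like cells at 10 to 25%.

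Both libraries filled the 2 enteroendocrine-like clusters, though the markers of this class differed between the libraries, as given above. In cluster 16 (156 and 295 cells, whose median depth was 4361 and 3452) the nuclear sum was 5.12% and 4.18%, a ratio of 0.818, and in cluster 24 (67 and 91 cells, led by Pyy and Gcg) it was 4.399% and 3.38%, a ratio of 0.769. In each cluster 29 of 81 subunits were at least 1.5-fold lower, where 24.2% and 27.9% of genes were. Cyc1 was at 450 and 165 CPM in cluster 16 and at 399 and 188 CPM in cluster 24. Sdhb was at 337 and 170 CPM and at 302 and 159 CPM. Uqcr10, in contrast, was at 1079 and 1633 CPM and at 835 and 994 CPM. In the lymphocytes of cluster 14 the nuclear sum was 3.66% and 3.42%, a ratio of 0.936, and 7 of 81 were lower (15.3% of genes). In the other clusters that both libraries filled the nuclear ratio lay on both sides of 1. It was 0.971 in cluster 5, 0.885 in cluster 12, 1.06 in cluster 10 and 1.06 in the tuft-like cells. In cluster 10, 8 of 81 subunits were higher and 2 lower, where 27.6% of genes were higher and 14.9% lower. In cluster 5, 0 of 81 subunits were past 1.5-fold in either direction, where 6.11% of genes were lower and 3.21% higher.

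Other genes of mitochondrial metabolism were counted by lists. Beside the lists stand the shares over all 15834 genes, 13.0% higher and 10.6% lower with a median of 0.01, and nothing particular to a list is read from its count. None of 19 TCA cycle genes had a mean above 0. By the 1.5-fold limit 3 were lower and 0 higher, with a median of -0.34. Of all 15834 genes 7683 had a mean below 0. Of the 2831 genes with at least 50 CPM 1716 did, with a median of -0.13. Idh3g, a subunit of isocitrate dehydrogenase, was at 105 and 72.2 CPM in epithelial-like cells, and Cs, citrate synthase, at 97.9 and 85.8. Mitochondrial ribosomal proteins had 11 higher and 8 lower of 78, with a median of -0.06, and spanned Mrpl43 (177 and 687 CPM) to Mrpl42 (257 and 168 CPM). Of 31 assembly factors of complexes II to IV, 5 were higher and 1 lower; Coa7, for complex IV, was at 19.3 and 94.1 CPM and Sdhaf1, for complex II, at 82.1 and 247 CPM. Among 16 carriers 1 was higher, Slc25a4, an ADP/ATP exchanger, at 58.7 and 230 CPM. Genes of mitochondrial DNA transcription and upkeep had 2 higher and 2 lower of 22, with Mterf4 at 17.0 and 43.2 CPM, and genes of mitochondrial RNA processing had 2 higher and 3 lower of 24. Import and chaperone genes had 3 higher and 2 lower of 28, from Chchd4 (49.5 and 119 CPM) to Hspe1 (812 and 618 CPM). Regulators of mitochondrial biogenesis had 1 higher and 0 lower of 15, with Ppargc1b at 23.97 and 18.8 CPM. In a list of dissociation and nuclear RNA genes 7 of 12 were lower, with Atf3 at 929 and 201 CPM; the part of cell handling in the members' values was not tested.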

How the data were processed

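The deposited counts, whole-number UMIs per gene and cell barcode, came from the authors' Cell Ranger run (version 3.0.0 with Seurat 3 per the submitters' processing notes, 3.1.0 per the file headers); the sources used here do not give the genome build. Totals were 111239295 UMIs over 10181 control barcodes and 89729527 over 9225 cKO barcodes. Barcodes with fewer than 500 genes or 25% or more mt- UMIs were dropped (1027 and 2100). The Scrublet automatic threshold marked 0 and 1 cells, so cells scoring over 0.25 were removed (77 and 53), a limit set after seeing the scores. Cells were clustered (2000 variable genes without members, mt-, ribosomal protein or sex-linked marker genes; 30 components; 15 neighbours; leidenalg 0.10.2, resolution 1; scanpy 1.11.5) and named from markers when at least 3 were among 50 leading genes, a scoring rule set after seeing the data; other cells stayed unnamed, and rebuilt names may differ from the study's. UMIs were summed per class and library. Levels are CPM with exact Poisson intervals, ratios have exact conditional intervals (scipy 1.17.1), and the code was tested on simulated data. Coordinates and gene overlaps are from GENCODE M21 (GRCm38). Named members were all mitochondrially encoded ones, all isoforms, the 2 highest and 2 lowest per complex with at least 50 CPM, the 3 highest and lowest per class of the control, and the 2 highest and lowest of each list with at least 20 CPM; other names were chosen after their values were seen. The closing section gives the alternatives tried. The members and lists were chosen with earlier results of these data known.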

Additional observations from a re-analysis of the deposited data

Results flagged for a closer look

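Barcodes at or above 25% mt- UMIs, which no comparison above uses, were 5.84% of the control barcodes and 17.4% of the cKO barcodes. In those with 25 to 50% mt- UMIs, nuclear subunits were 5.54% of the other UMIs in the control (534 barcodes, median 756 UMIs) and 4.46% in the cKO (1119 barcodes, median 1573 UMIs).

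A few nuclear members stood higher in one class and lower in another, each by at least 0.32 on the log2 scale, with both counting intervals clear of 1; the difference between classes was not tested. Cox7a1 had a log2 ratio, cKO over control, of 0.37 in goblet-like cells, beside -0.64 in cycling-like, -1.65 for colonocyte-like and -1.08 for enteroendocrine-like cells. Ndufa10, an accessory subunit of complex I, had 0.35 for goblet-like, -0.41 for colonocyte-like and -0.56 for enteroendocrine-like cells. The assembly factors Ndufaf5, Ndufaf3 and Ndufaf8 did the same with the lowest value in colonocyte-like cells: Ndufaf5 had 0.41 in cycling-like and -0.99 in colonocyte-like cells, Ndufaf3 had 0.34 and -0.65 in these classes, and Ndufaf8 had 0.35 in goblet-like and -0.53 in colonocyte-like cells.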

How the results depend on the processing

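No paired analysis was possible because each genotype is 1 library, and for the same reason no replicate could be left out. The nuclear sum, as a mean log2 ratio of -0.15 over 4 classes, stayed below 0 under all 10 settings tried: -0.12 with cells under 10% mt- UMIs, -0.13 under 50%, -0.14 with at least 1000 genes per cell, -0.13 with doublets kept, -0.14 with mitochondrially encoded UMIs left out of the total, -0.12 when ribosomal protein UMIs were also left out, -0.19 at resolution 2, -0.17 when thinned to 1700 UMIs per cell (1026 control and 998 cKO cells were shallower), -0.18 as a mean over cells and -0.13 without the 4 clusters over 9% mt- UMIs, a setting added after seeing the data. In the same order the mitochondrially encoded sum (0.28) was -0.011, which is a reversal, then 0.29, 0.27, 0.29, 0.29, 0.31, 0.36, 0.55, 0.47 and 0.14. The log2 ratio of the nuclear sum in control colonocyte-like over other epithelial-like cells (0.57) was 0.58, 0.52, 0.57, 0.50, 0.59, 0.42 and 0.57 under the first 7 of these and 0.57 without those clusters.

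By class, the mitochondrially encoded sum also reversed with cells under 10% mt- UMIs in cycling-like (0.12 to -0.055), colonocyte-like (0.43 to -0.029) and enteroendocrine-like cells (0.12 to -0.061), and in cycling-like cells under the 50% limit (-0.15) and without the 4 clusters (-0.035). The nuclear sums of cycling-like (0.02) and goblet-like cells (0.002), which were close to 0, turned to -0.095 and -0.020 at resolution 2, -0.013 and -0.045 when thinned, and -0.0026 and -0.055 as means over cells. The count of lower nuclear members was 6 to 11 over 12 settings (11 at resolution 2 and when thinned), and that of higher mitochondrially encoded members 3 to 7 (3 with cells under 10% mt- UMIs and without the 4 clusters). Median sizes ranged from -0.32 to -0.24 for nuclear and from 0.31 to 0.75 for mitochondrially encoded members. Of 15 named members past 1.5-fold, 15 kept their direction under all 10 settings that give single members and 11 stayed past 1.5-fold. The cause of these shifts was not tested.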

Other observations

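The smaller classes extend the range of the system. In the cKO, where most immune cells were found, myeloid-like cells (435) had 2.35% of UMIs in nuclear subunits and B- or plasma-like cells (175) had 2.41%, below every epithelial class. Tuft-like cells had 5.32% in the control (51 cells) and 5.62% in the cKO (44 cells), a ratio of 1.06 (1.03 to 1.08), on the other side of 1 from colonocyte-like cells. Cluster 19, 227 epithelial cells of the cKO with none from the control and led by Ccl20, Clu and Fabp5, had 7.02%, above the 6.75% of cluster 17, the main colonocyte-like cluster of that library.

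Across clusters of at least 50 cells, the nuclear share of non-mitochondrial UMIs and the mt- share were correlated within each library. Pearson r was 0.27 (Spearman 0.47, 16 clusters) in the control and 0.32 (Spearman 0.48, 17 clusters) in the cKO. Among epithelial-like clusters it was 0.15 (Spearman 0.36, 15 clusters) in the control and -0.03 (Spearman -0.01, 12 clusters) in the cKO. Clusters of 1 library share its depth and its free RNA, so these are descriptions. Across genes, which are not replicates, the mean size was set against annotated length, the median over the coding transcripts of a gene. Spearman rho was -0.36 over the 77 nuclear subunits with at least 50 CPM and -0.59 over 12 mitochondrially encoded ones. For the latter the length is that of the single gene, such as 204 bases for mt-Atp8 and 297 for mt-Nd4l, which lie on longer shared messages. The length of the expressed messages was not measured. GC content of the longest annotated transcript gave 0.01 and -0.47.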
